A study of Zea mays with 10 samples.

Results

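The genes described are 4 maize SBP-box genes that shape bracts, branches, kernel rows and glumes: tsh4 (tasselsheath4, GRMZM2G307588), ub2 (unbranched2, GRMZM2G160917), ub3 (unbranched3, GRMZM2G460544) and tga1 (teosinte glume architecture1, GRMZM2G101511). They were picked by gene ID, and all 4 were found among the 39636 gene IDs of the expression table. RNA-seq was made from ear primordia of 1 mm, collected from plants grown in the field in families that segregated for the fea4 mutation. One group was homozygous for fea4, a mutation in the bZIP transcription factor gene FASCIATED EAR4 that makes ears broad and flattened. The other was its heterozygous fea4/+ siblings, which look normal but also carry 1 mutant copy, so no group was free of the mutation. Each group had 3 pools, each of more than 10 ears. The reference allele came from chemical mutagenesis of the inbred A619 and was then crossed into other inbreds, and the labels do not name the allele or inbred of each pool.

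SBP-box proteins are plant transcription factors that bind DNA through a zinc-binding domain. Many of them, these 4 genes included, are targets of the microRNA miR156, which keeps them low in young plants and lets them rise as the plant ages. In the maize inflorescence, tsh4 is known for suppressing bracts, the leaves below each branch or spikelet pair. ub2 and ub3 act redundantly with tsh4, and mutants that lack them have fewer tassel branches and more kernel rows. tga1 is the domestication gene whose change freed the maize kernel from the hard casing of teosinte.

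None of the 4 genes passed the test between mutant and sibling ears, and all 4 fitted fold changes were below 0. The nearest to the threshold was tsh4, the most abundant of the 4, at a level 25.3% lower in the mutants and an adjusted p of 0.086. The fitted differences of ub3 and ub2 were 24.1% and 16.4% lower. tga1 had 8 to 32 fragments per pool, and its interval runs from 0.252 to 2.27 of the sibling level. Neither a lower nor a higher level of tga1 within those bounds was excluded. These bounds are not a limit of detection, which was not worked out. Adjusted p-values come from edgeR (quasi-likelihood test), were corrected by Benjamini and Hochberg's method over the 20618 genes tested, and were held against 0.05. Over all those genes 2.48% passed (1.08% lower and 1.4% higher in the mutant), and 51.3% had a fold change below 0. The median log2 fold change of the 4 genes was −0.40, against −0.01 over all tested genes.

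The pools held 8168955 to 28323324 fragments, and mutant pool 2 was the shallowest, so that 1 CPM (a count scaled to library size with TMM factors) stood for 8.15 fragments there. The FEA4 transcript itself had 4.21 to 4.68 FPKM in the sibling pools and 3.59 to 6.23 FPKM in the mutant pools (edgeR adjusted p = 0.959), so it did not check the genotype labels. Of the meristem markers, kn1 and 8 others were all detected in siblings, and all but bd1 in mutants. Their summed level was 1235 to 1390 CPM in siblings and 1012 to 1352 CPM in mutants. kn1 made up 70.4% of it, and without kn1 the sum was 434 to 455 CPM in siblings and 276 to 309 CPM in mutants, with no overlap. Among single genes, 10.5% of all tested had mutant CPM values all below the sibling values. The markers ra3, ba1, ra1, bd1 and gnarley1 were lower in mutants (edgeR adjusted p = 2.32e-05, 0.00399, 0.0451, 0.032 and 0.0121). The other markers, kn1 among them, did not pass. 8 of these 9 markers are also among the genes that work with SBP-box genes, described further on. Of 23 genes listed by symbol for green tissue, 6 had no fragment in any pool, among them lhcb3 and cab-m1. Of their summed level of 109 to 128 CPM in siblings and 106 to 113 CPM in mutants, 52.4% was the single gene rcalm. That sum also holds psat1, at 28.3 to 39.5 CPM in siblings and 24.6 to 34.2 CPM in mutants. psat1 was matched through its symbol only and is not a green tissue marker. Genes listed by symbol for seed and pollen summed to 5.87 to 10.4 CPM in siblings and 3.68 to 18.4 CPM in mutants, and 24 of 28 had no fragment. plt1 made up 45.6% of that sum and was higher in mutants (edgeR adjusted p = 0.0307). Both plt1 and plt2 entered the list by symbol alone, and whether they mark seed or pollen was not checked. Without plt1 the sum was 5.09 to 8.51 CPM in siblings and 2.21 to 4.24 CPM in mutants, with no overlap. The largest part of this remainder in each pool was a single gene, the seed globulin gene glb1. It had 4.65 to 8.18 CPM in siblings and 1.35 to 2.64 CPM in mutants (edgeR adjusted p = 0.037). The vascular list was 99.3% cesa10, a cellulose synthase gene, at 32.9 to 37.3 CPM in siblings and 42.9 to 44.9 CPM in mutants (edgeR adjusted p = 0.213). The part of the meristem, seed and vascular markers in the values below was not tested.

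tsh4 was counted with 1454, 1960.92 and 2142 fragments in sibling pools 1 to 3 and with 1190, 735 and 2009 in mutant pools 1 to 3. Per length and library, its level was 48.2, 59.5 and 55.6 FPKM (fragments scaled to transcript length and library size, as the authors deposited them) in the siblings and 34.3, 50.8 and 41.3 FPKM in the mutants. Mutant pools 1 and 3 lay below every sibling pool, whereas mutant pool 2 lay above sibling pool 1, so the groups overlapped. On the CPM scale tsh4 averaged 99.8 ± 9.88 in siblings and 75.1 ± 14.4 in mutants (SD, n = 3 pools each). The overlap was also seen there, since mutant pool 2 at 90.2 CPM stood just above sibling pool 1 at 89.1 CPM.

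The fitted log2 fold change of tsh4 was −0.42 ± 0.13 (SE; unadjusted p = 0.00359, adjusted p = 0.086 by edgeR), with a 95% interval of −0.68 to −0.16. That is 0.747 of the sibling level, with an interval of 0.622 to 0.898 before any correction for the number of genes. Among all tested genes, 13.4% had a fold change at least as low. tsh4 passed the threshold when the shallow mutant pool 2 was left out (log2 fold change −0.56, edgeR adjusted p = 0.0169), and in the fit without a filter on low counts (adjusted p = 0.018). It came no nearer than an adjusted p of 0.118 when any of the other 5 pools was left out, and without mutant pool 1 its log2 fold change was −0.29 (adjusted p = 0.392). In the authors' deposited table tsh4 had a log2 fold change of −0.41 and an adjusted p of 0.187, where 1.7% of the genes with a value passed 0.05.

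**Figure D1:**
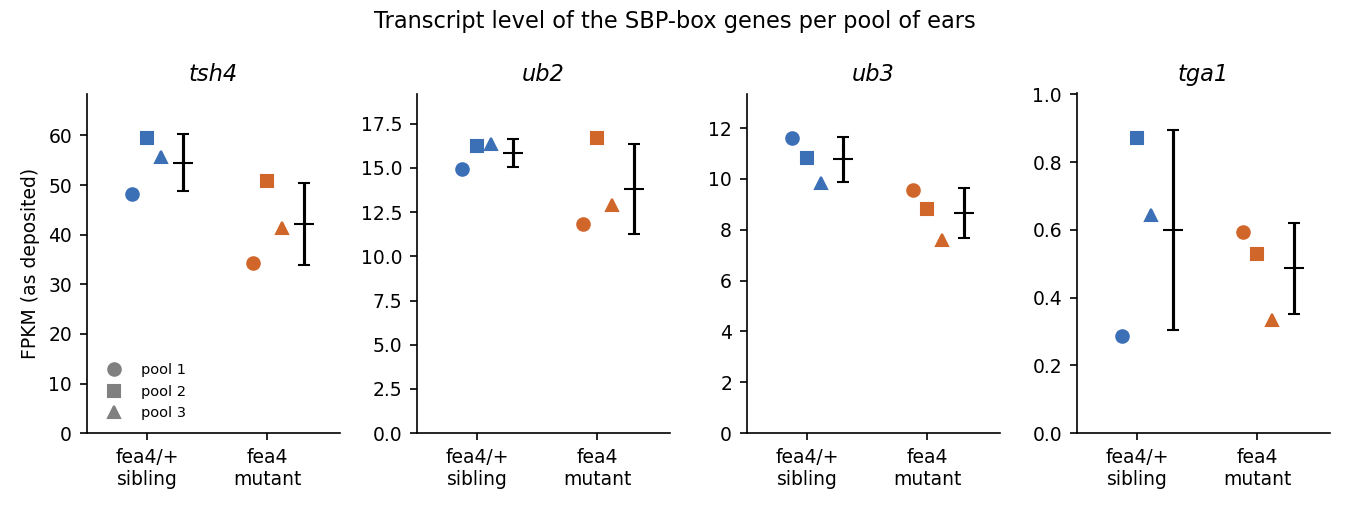
Level of tsh4, ub2, ub3 and tga1 in FPKM as deposited, per pool of ears (blue, fea4/+ siblings; orange, fea4 mutants; the symbol gives the pool number), with the mean and SD of the 3 pools as a bar beside them; each gene has its own axis from 0. In ub3 all 3 mutant pools (7.59 to 9.55) lie below all 3 sibling pools (9.86 to 11.6), and in the other genes the groups overlap.

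ub2 had 555, 665 and 785 fragments in sibling pools 1 to 3 and 511, 296 and 776 in mutant pools 1 to 3. Its level was 14.9, 16.2 and 16.4 FPKM in the siblings and 11.8, 16.7 and 12.9 FPKM in the mutants. As with tsh4, mutant pools 1 and 3 were low, and mutant pool 2 was above every sibling pool in FPKM. In CPM, ub2 averaged 36.1 ± 1.78 in siblings and 30.4 ± 5.25 in mutants (SD, n = 3 pools each), so the mutant pools were more spread than the sibling pools. The fitted log2 difference was −0.26 ± 0.15 (SE; unadjusted p = 0.101, adjusted p = 0.422 by edgeR), and its 95% interval of −0.57 to 0.06 spans a level from 0.672 to 1.04 of the siblings. ub2 did not pass whichever pool was left out (edgeR adjusted p = 0.166 to 0.791), nor in the authors' deposited table (log2 fold change −0.24, adjusted p = 0.574). Leaving out mutant pool 2 moved its log2 fold change to −0.39, and leaving out mutant pool 1 moved it to −0.17.

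ub3, the gene under a known locus for kernel row number, had 353, 379 and 400 fragments in sibling pools 1 to 3 and 347, 115 and 397 in mutant pools 1 to 3. Its level was 11.6, 10.8 and 9.86 FPKM in the siblings and 9.55, 8.82 and 7.59 FPKM in the mutants. ub3 was the only one of the 4 genes whose groups did not overlap, in FPKM and in CPM alike. Mutant values all below sibling values were seen in 10.5% of all tested genes on the CPM scale and in 8.45% in FPKM, so this separation in 1 gene of 4 is no more than a description. In CPM, ub3 averaged 20.5 ± 1.36 in siblings and 15.5 ± 2.09 in mutants (SD, n = 3 pools each). Its fitted log2 fold change was −0.40 ± 0.18 (SE; unadjusted p = 0.0421, adjusted p = 0.286 by edgeR), with a 95% interval of −0.78 to −0.02. tsh4 and ub3 were thus lower at an unadjusted p under 0.05, as were 7.71% of all tested genes. Leaving out 1 pool at a time gave ub3 log2 fold changes of −0.52 to −0.34 and edgeR adjusted p from 0.264 to 0.63, and the authors' deposited table gave −0.40 with an adjusted p of 0.639.

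tga1 had only 9, 32 and 27.6494 fragments in sibling pools 1 to 3 and 23, 8 and 17 in mutant pools 1 to 3. Its level was 0.286, 0.872 and 0.645 FPKM in the siblings and 0.595, 0.529 and 0.335 FPKM in the mutants. The lowest and the highest pool were both siblings, and the mutant pools lay between them. Its fitted log2 fold change was −0.40 ± 0.76 (SE; adjusted p = 0.855 by edgeR), and the 95% interval of −1.99 to 1.19 covers levels from 0.252 to 2.27 of the siblings. Without sibling pool 2 the log2 fold change was −0.04 and without sibling pool 1 it was −0.75. Only in tga1 did leaving out a single pool bring the fold change this close to 0.

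**Figure D2:**
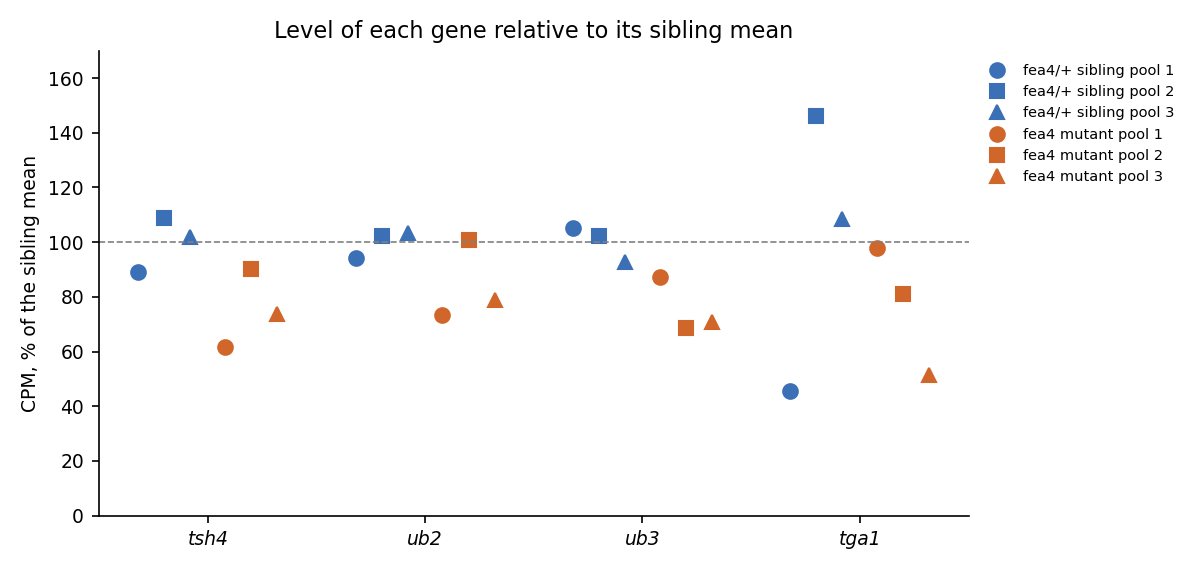
Level of each gene in each pool as a percentage of its own sibling mean in CPM (blue, fea4/+ siblings; orange, fea4 mutants; the symbol gives the pool number; the dashed line is 100%). Mutant pool 2 stands at 90.4% and 101% in tsh4 and ub2 but at 68.7% in ub3, and the sibling pools of tga1 run from 45.5% to 146%.

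The mutant pools were ordered alike in tsh4 and ub2, and differently in ub3. Relative to the sibling mean in CPM, mutant pools 1 to 3 had 61.6%, 90.4% and 73.6% of tsh4 and 73.2%, 101% and 78.8% of ub2. In ub3 the same pools had 87.3%, 68.7% and 70.7%, so on this scale the mutant pool that was highest for tsh4 and ub2 was the lowest for ub3. In FPKM the lowest mutant pool of ub3 was pool 3. Over the 6 pools, Pearson's r of log2(CPM + 1) was 0.96 between tsh4 and ub2. It was 0.39 between tsh4 and ub3 and 0.29 between ub2 and ub3. These values are a description over 6 pools that share their libraries and 2 genotypes. Near-identical genes can share fragments, and 22 of the 24 values of the 4 genes were whole numbers (within 1e-09), where 11.4% to 14.1% of all values per library were not. A count split between gene models was therefore visible in 1 pool of tsh4 and 1 pool of tga1.

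The genes with a name whose levels ran most like those of each member were listed by the same r among 13004 genes (13005 for tga1) with a mean of at least 10 CPM. For tsh4 they were MUB6 (r = 0.987), ub2 itself and the desaturase gene fad2 (r = 0.96), and 33 genes were at least as alike as the last of these. For ub2 they were RAB15 (0.982), sod9 (0.974) and ZBP14 (0.967), with 30 genes at least as alike. For ub3 the nearest was lg3 (0.98), a knotted1-like homeobox gene, ahead of fae1 (0.968) and rfz1 (0.967), with 23 genes at least as alike. For tga1 PPDK2 (0.957), cdpk14 (0.954) and Atg7 (0.953) came out with 17 genes, for a member with few fragments. lg3 had 49.1 FPKM ± 3.83 in siblings and 40.0 FPKM ± 3.57 in mutants (SD, n = 3 each), with no overlap, a log2 difference of −0.34 ± 0.11 (SE) and, by edgeR, an adjusted p of 0.121. Because lg3 was picked for its likeness to ub3 over these same pools, and ub3 separates the groups, this separation is no separate result. Of all tested genes, 8.45% had such a downward separation in FPKM.

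The levels of the 4 genes kept the same order in every pool of both genotypes, with tsh4 first, ub2 next, then ub3 and tga1. In siblings the means were 54.5 FPKM ± 5.74 for tsh4, 15.8 FPKM ± 0.783 for ub2, 10.8 FPKM ± 0.882 for ub3 and 0.601 FPKM ± 0.296 for tga1 (SD, n = 3 each). In mutants they were 42.1 FPKM ± 8.27, 13.8 FPKM ± 2.56, 8.65 FPKM ± 0.988 and 0.486 FPKM ± 0.135 (SD, n = 3 each). Within each genotype, the lowest pool of every gene lay above the highest pool of the next gene in the order. Of the summed FPKM of the 4 genes, tsh4 made up 60.9% to 68.0%, ub2 18.6% to 21.7%, ub3 11.5% to 17.0% and tga1 0.381% to 1.06% over the 6 pools. Among all tested genes, 87.4% had a lower mean FPKM than tsh4, 59.5% a lower one than ub2, 47.9% than ub3 and 3.98% than tga1.

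Summed over the 4 genes, the level was 75.1, 87.5 and 82.5 FPKM in sibling pools 1 to 3 and 56.3, 76.8 and 62.1 FPKM in mutant pools 1 to 3. The mean was 81.7 FPKM ± 6.24 in siblings and 65.1 FPKM ± 10.6 in mutants (SD, n = 3 each), and the sum is mostly tsh4. Mutant pool 2 overlapped with sibling pool 1. In CPM the same sum did not overlap, at 145 to 168 CPM in siblings and 107 to 142 CPM in mutants, though tsh4 by itself did. Of all tested genes, 10.5% had such a downward separation in CPM, so it is no more than a description.

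Whether the genes kept their proportions was examined through the ratio of each of the 6 pairs within each pool. The tsh4 to ub2 ratio had a mean log2 value of 1.78 ± 0.09 in siblings and 1.61 ± 0.07 in mutants (SD, n = 3 each), which are ratios of 3.43 and 3.05. Its values ran from 1.69 to 1.87 in the sibling pools and from 1.53 to 1.68 in the mutant pools, with no overlap. The difference of −0.17 had an exact permutation p of 0.1, the smallest that 3 pools against 3 can give, and 0.6 adjusted over the 6 pairs. The other 5 pairs overlapped, with exact permutation p from 0.7 to 1. The ub2 to ub3 ratio was 1.47 in siblings and 1.59 in mutants, a log2 difference of 0.11 that became −0.02 without mutant pool 2. The log2 ratio of tsh4 to ub3 was 2.34 ± 0.25 in siblings and 2.27 ± 0.37 in mutants (SD, n = 3 each), and this difference changed sign without sibling pool 3 or mutant pool 1.

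**Figure D3:**
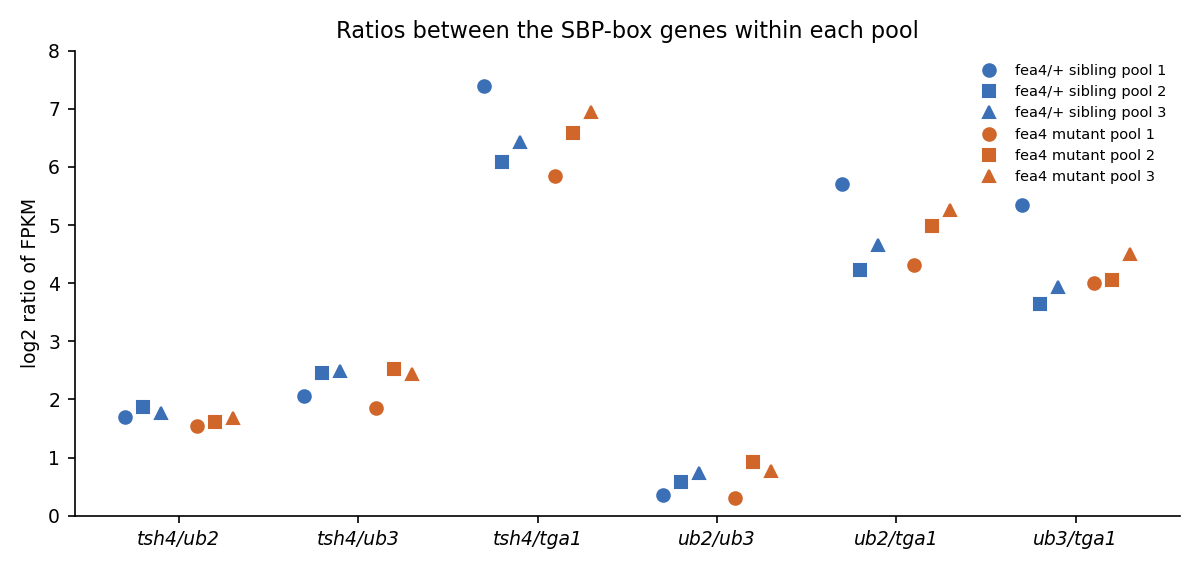
Ratio of FPKM between each pair of the 4 genes within each pool, on a log2 scale (blue, fea4/+ siblings; orange, fea4 mutants; the symbol gives the pool number). Only the tsh4/ub2 ratio separates the groups, at 1.69 to 1.87 in siblings and 1.53 to 1.68 in mutants, and the pairs with tga1 spread most.

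The other SBP-box genes were taken from a reference name table, as every gene with an sbp or spl symbol plus lg1, the SBP-box gene of the leaf ligule. That gave 19 further gene IDs, of which 18 were tested. By edgeR 0 rose and 0 fell, against 1.4% and 1.08% of all tested genes, and DESeq2 also called 0. At an unadjusted p under 0.05, 0 were higher and 1 was lower, where 7.71% of all tested genes were lower. The median log2 fold change of the 18 was −0.14, with a range of −0.98 to 0.49, and 10 were below 0, against 51.3% of all tested genes. Among the 23 SBP-box gene IDs, ordered by mean FPKM in siblings, tsh4 ranked 2, ub2 ranked 7, ub3 ranked 10 and tga1 ranked 22. In mutants they ranked 3, 8, 11 and 22. tsh4 changed places with sbp29, ub2 with sbp7 and ub3 with sbp19.

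sbp16 had a higher mean than tsh4 in both genotypes, with 70.4 FPKM ± 11.1 in siblings and 72.5 FPKM ± 5.12 in mutants (SD, n = 3 each). sbp29, with 49.1 FPKM ± 3.22 in siblings and 51.8 FPKM ± 11.8 in mutants (SD, n = 3 each), had a lower mean than tsh4 in siblings and a higher one in mutants. Below tsh4 and sbp29 stood sbp27 and sbp17, at 27.4 to 34.7 and 28.9 to 30.5 FPKM in siblings and 33.8 to 38.0 and 28.9 to 33.3 FPKM in mutants. The fold changes of sbp16, sbp29 and sbp17 were within 0.05 of 0 on the log2 scale, and that of sbp27 was 0.21 ± 0.11 (SE, edgeR adjusted p = 0.397). The lowest fold change and the lowest adjusted p belonged to sbp1, at 2.76 to 4.11 FPKM in siblings and 1.22 to 2.02 FPKM in mutants, a log2 difference of −0.98 ± 0.36 (SE; adjusted p = 0.172 by edgeR). sbp18 had −0.58 ± 0.30 and sbp5 0.49 ± 0.29 (SE; edgeR adjusted p = 0.358 and 0.441). sbp1 and sbp18 separated the groups downward and sbp5 upward, 2 and 1 of the 18, where 10.5% and 10.2% of all tested genes did so in CPM. lg1 had 3 fragments in 1 sibling pool, 3 in 1 mutant pool and 0 in the other 4, so it gave no comparison. Both gene IDs matched to sbp12 (GRMZM2G126827 and GRMZM2G156621) held fractional counts in all pools, and their separate values are uncertain.

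A further gene, GRMZM2G101499 (LOC541995), carries sbp3 only as an older name and was picked out after its values had been seen. It had 65, 90 and 94 fragments in sibling pools 1 to 3 and 113, 102 and 262 in mutant pools 1 to 3. All 3 mutant levels, 3.31, 7.16 and 4.71 FPKM, were above the sibling levels of 2.19, 2.12 and 2.48 FPKM, a separation seen upward in 10.2% of all tested genes in CPM. The fitted log2 difference was 1.04 ± 0.31 (SE; adjusted p = 0.0886 by edgeR), and 0.79 without mutant pool 2. It passed in the fit without a filter on low counts (adjusted p = 0.0406) and by no other test run.

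**Figure D4:**
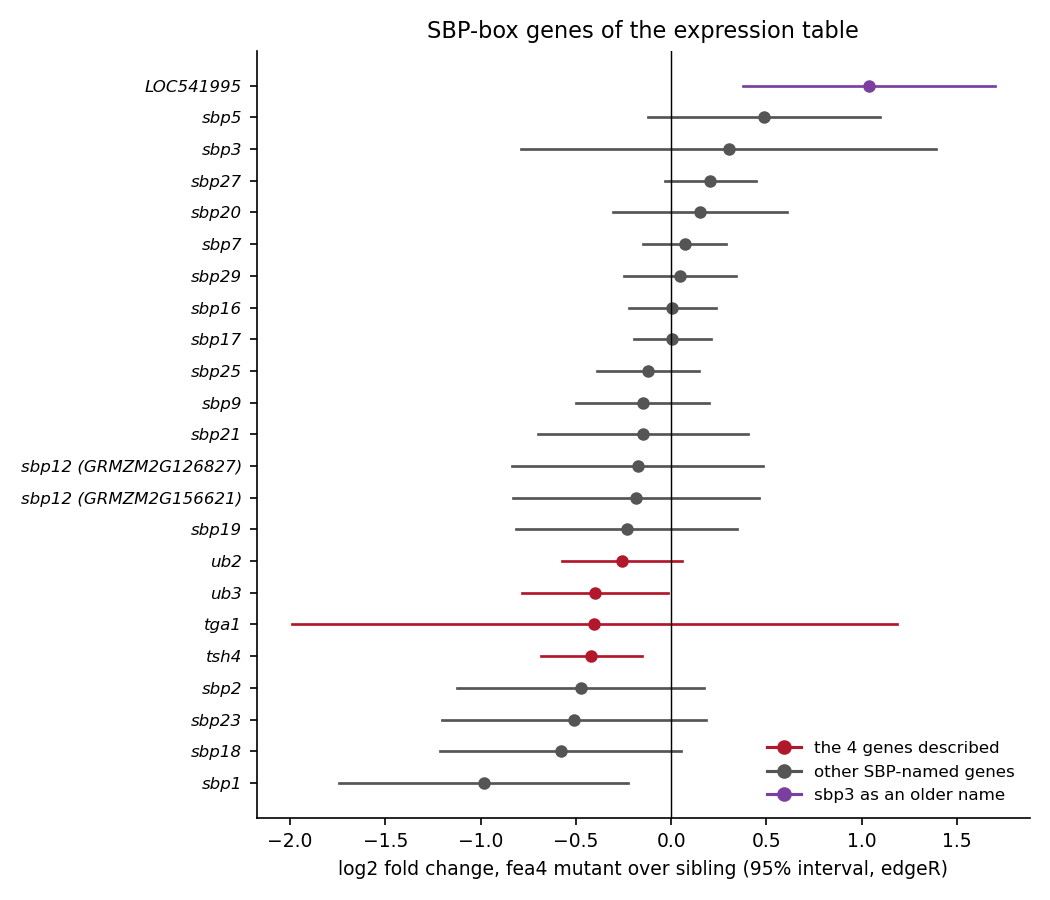
Log2 fold change (fea4 mutant over sibling, edgeR) of each tested SBP-box gene with its 95% interval before correction for the number of genes (red, the 4 genes described; grey, other SBP-named genes; purple, the gene with sbp3 as an older name). The intervals of tsh4, ub3, sbp1 and LOC541995 leave out 0, that of tga1 is the widest, and no gene passed the adjusted threshold.

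Genes that work with SBP-box genes in bract, branch and meristem control were looked up by symbol. Of 32 symbols 22 were found in the expression table and 21 were tested, and no miR156 or miR172 precursor matched a gene ID there. By edgeR 4 fell and 0 rose, against 1.08% and 1.4% of all tested genes, and the median log2 fold change was −0.23. The list had been put together with earlier results of these data known. The 4 were ra3 (66.6 to 74.5 FPKM in siblings and 32.2 to 35.5 FPKM in mutants), ba1 (26.8 to 30.2 and 14.7 to 15.7 FPKM), ra1 (11.8 to 16.9 and 3.88 to 9.86 FPKM) and bd1. ra3 and ra1 limit branching, ba1 starts axillary meristems and bd1 keeps spikelet meristems from branching. Their edgeR adjusted p-values were 2.32e-05 for ra3, 0.00399 for ba1, 0.0451 for ra1 and 0.032 for bd1, which had 12 to 30 fragments in each sibling pool and 0 in each mutant pool. Against a floor of 3 counts over the mutant group bd1 was 19.0-fold lower. With bd1 at that value the median of the list was still −0.23. The 19.0-fold value rests on summed counts and leaves out the spread between pools, so it is not a lower limit. In the edgeR fit the interval of bd1 reached up to 0.0816 of the sibling level. Whereas ra3 and ba1 passed whichever pool was left out, ra1 passed only without mutant pool 1 and bd1 only without sibling pool 3, of the 6 pools left out in turn. The count of genes that fell was 2 without sibling pool 1, sibling pool 2 or mutant pool 3.

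Among those that did not pass were the AP2 genes of bract and spikelet fate, which like the SBP-box genes are read by a microRNA. ids1 had 14.2 FPKM ± 0.684 in siblings and 17.1 FPKM ± 3.46 in mutants (SD, n = 3 each; log2 fold change 0.19 ± 0.15, edgeR adjusted p = 0.609). sid1 had 3.86 to 4.26 FPKM in siblings and 3.38 to 4.06 FPKM in mutants (log2 fold change −0.20 ± 0.25, edgeR adjusted p = 0.758). The juvenile leaf gene gl15 had 0 to 9 fragments per pool and was not tested. In pools of whole ears, fewer cells that express a gene and less RNA per cell cannot be told apart.

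**Figure D5:**
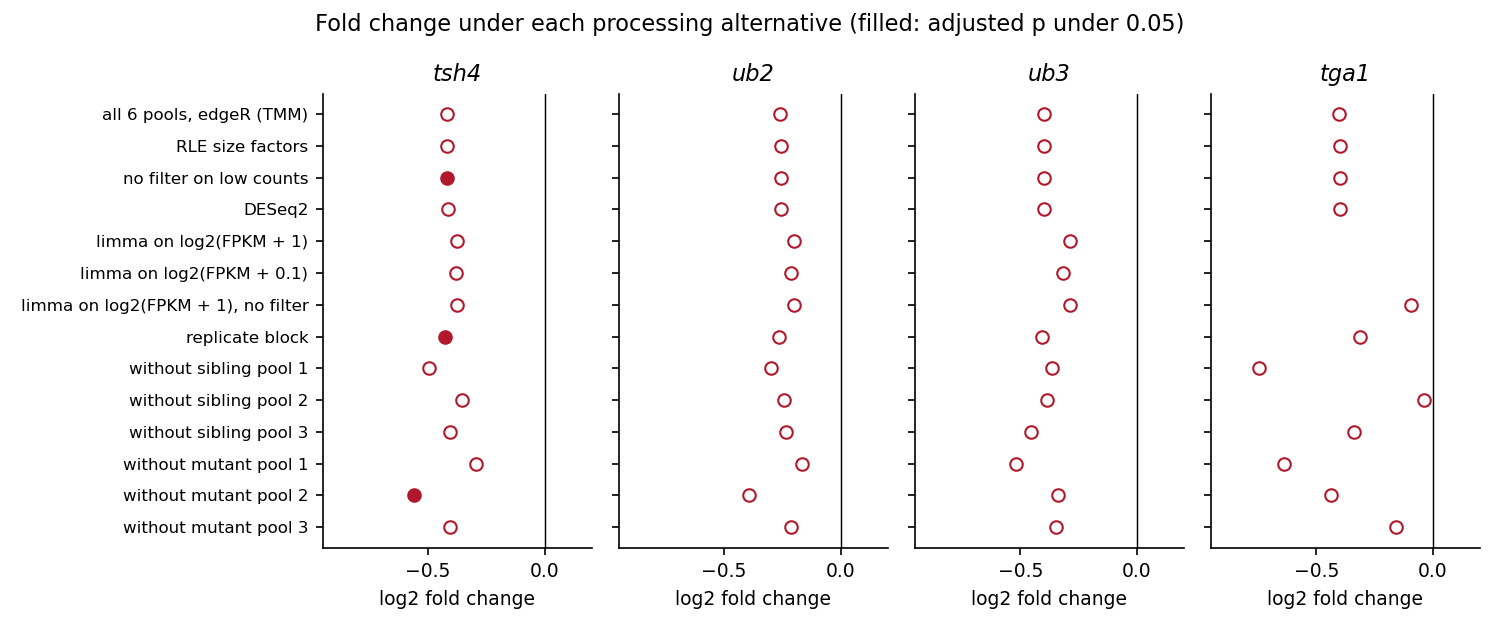
Log2 fold change (fea4 mutant over sibling) of each gene under each processing alternative, from the fit to all 6 pools at the top to the fits that leave out 1 pool each; filled circles have an adjusted p under 0.05. tsh4 is filled in 3 of its 14 fits, ub2, ub3 and tga1 in none, and each circle lies below 0; tga1 has no value in the limma fits with a filter on FPKM.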

How the data were processed

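Expected counts are raw fragments per gene as deposited by the authors, 11.4% to 14.1% of them per library not whole. The deposited FPKM values, log2 fold changes and adjusted p-values (DESeq, per the file headers) come from the same table, as do the deposited mean signal values per genotype, which were not used. Of tools, DESeq 1.14.0, Cufflinks 2.0.2, TopHat2 2.0.9 and CASAVA are listed in the submitters' processing notes, with no roles. No source used here gives the build, the annotation or whether counting used strand, so overlapping antisense genes could not be told apart. ChIP-seq peaks were not analysed here.

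Rounded counts entered edgeR 4.0.16 under R 4.3.3 (robust quasi-likelihood fit, TMM, filterByExpr, genotype as the only term, two-sided). All 4 genes passed the filter. The common biological coefficient of variation was 20.0%. Intervals are 95% from the same fit. Alternatives were RLE factors, no filter, DESeq2 1.42.0, limma 3.58.1 on log2(FPKM + 1) or log2(FPKM + 0.1) for genes with a mean of at least 1 FPKM or without that filter, a replicate block, and leaving out each pool. The fits were tested on simulated data. Permutation tests were exact and two-sided.

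Samples were grouped by title. No library was a copy of another: chi-square values per degree of freedom between pools of a group were 9.48 to 17.1, above sampling noise. In the labels, nothing pairs the pools of both genotypes. Nothing states how pools were kept apart in the field, so p-values measure the spread between pools. The lane of each pool is not given.

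Names were taken from a table for assembly Zm-B73-REFERENCE-NAM-5.0: 18255 of the 39636 IDs had a single match there, 2128 of them with a gene name. Named were the 4 members, the list genes past the threshold, and otherwise the 4 with the lowest adjusted p and the 4 with the highest level; lg3 and the genes beside it were named for likeness (highest r), and ids1, sid1, gl15 and fea3 after their values had been seen. A second GT1 gene and a catalase gene under the symbol Ct2 were left out. The members and lists were chosen with earlier results of these data known.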

Additional observations from a re-analysis of the deposited data

How the results depend on the processing

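The 4 log2 fold changes were below 0 in each fit that gave a value. tsh4 passed in 3 alternatives: −0.42 with all genes kept (adjusted p = 0.018), −0.43 under a replicate block (adjusted p = 0.0256), and −0.56 without mutant pool 2. Leaving out 1 pool at a time gave −0.56 to −0.29 for tsh4, −0.39 to −0.17 for ub2, −0.52 to −0.34 for ub3 and −0.75 to −0.04 for tga1. ub2, ub3 and tga1 passed in no alternative. DESeq2 gave tga1 no adjusted p.

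The replicate block did not rest on a known pairing: the deviations of same-numbered pools from their group means correlated at 0.01, −0.01 and −0.03. It called 719 genes, against 512 in the fit without it. The count was 922 without the filter and 893 with DESeq2. It was 189, 175 and 3 when limma was run on log2(FPKM + 1), on log2(FPKM + 0.1) and on log2(FPKM + 1) with no filter, and 156 to 811 on leaving out a pool: 182 and 260 without sibling pools 1 and 2, and 229, 811 and 156 without mutant pools 1 to 3. The median over all genes moved by less than 0.1 with each scaling.

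Among the genes that work with SBP-box genes, 4 fell in the edgeR fit to all 6 pools, and 2, 2 and 1 in those limma fits. Leaving out a pool gave 2 to 4 lower and 0 to 1 higher. The gene that rose was fea3, without sibling pool 3.

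Log2 ratio differences ranged, on leaving out a pool, from −0.21 to −0.12 for tsh4/ub2, −0.21 to 0.15 for tsh4/ub3, −0.45 to 0.20 for tsh4/tga1, −0.02 to 0.28 for ub2/ub3, −0.33 to 0.41 for ub2/tga1 and −0.45 to 0.40 for ub3/tga1. In CPM the ub2/tga1 difference was 0.015, against −0.01 in FPKM, and ub2/ub3 in FPKM was −0.023 without mutant pool 2. The summed FPKM was 14.9% to 27.5% lower on leaving out a pool. The cause of these changes was not tested. Of the members, tga1 had the fewest fragments, 8 to 32 per pool, and the widest interval.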
